A study of Mus musculus with 2 samples.

Results

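The Mir379 to Mir410 cluster is a run of miRNA genes on mouse chromosome 12 within the imprinted Dlk1-Dio3 domain. Its members were taken by position: every counted row that GENCODE annotates as a miRNA gene in the interval from Mir379 to Mir3072 (109709060 to 109747960, GRCm38, mm10), on either strand. The rule found 38 of the 1973 genes counted, 34 annotated on the plus strand and 4 on the minus strand. Small RNA under 30 nt was sequenced from the stomachs of B6NCrl mouse embryos at 14.5 days of development, untreated and of a single genotype, in 2 biological replicates. The labels describe each replicate as a single stomach, yet give its sex as male and female together, so pooling is not settled. Each stomach was collected on its own day, so day and replicate cannot be told apart. The libraries held 5004548 (replicate 1) and 4679914 (replicate 2) counts over all genes. Each level is given per 1000000 of these counts (CPM) and is a share of the counted miRNA. In whole tissue, fewer cells of a type and less RNA per cell cannot be told apart.

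In the Dlk1-Dio3 domain the protein-coding genes Dlk1, Rtl1 and Dio3 are expressed from the paternal chromosome, while the long non-coding RNAs Meg3, Rian and Mirg and the miRNAs are expressed from the maternal chromosome. The cluster is found in placental mammals, and its hairpins are thought to be cut from a long shared transcript. Many of them resemble each other and are grouped as the miR-154 family. The cluster is best known from brain, placenta and embryonic tissues, where several members act in neurons. A miRNA recognises its targets mainly through its seed, bases 2 to 8 from the 5′ end, so members that share a seed can share targets.

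RefSeq mature sequences (GRCm38.p6) were found for 37 of the 38 rows, 69 sequences in all, and Gm27379 is the row with none. For 5 of the 37 (Mir376c, Mir453, Mir485, Mir487b and Mir539) a single sequence is listed, so the seed of a second arm was not compared. The listed sequences held 64 different seeds, and 5 seeds were shared by members, 2 members to a seed. Among the listed sequences, 28 of the 37 rows carry no seed of another member. For the 4 rows annotated on the minus strand, the sequences are those of the plus-strand gene that each overlaps. The own arms of Mir299b, and those of Mir376b, which has no counted row, were left out of these seed counts. The sequences shown first are those of the shared seeds with the highest summed level, with the seed in capitals.
miR-379-3p: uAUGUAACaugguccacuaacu
miR-411-3p: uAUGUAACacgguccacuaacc
miR-379-5p: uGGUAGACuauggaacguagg
miR-1193-5p: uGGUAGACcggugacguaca

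Mir379 therefore shares a seed on its 3′ arm with Mir411 and another on its 5′ arm with Mir1193. The tables count reads per gene and do not separate the arms, so a level cannot be given to an arm or a seed. The genes Mir379 and Mir411 had sums of 15856 CPM (replicate 1) and 13985 CPM (replicate 2), and Mir379 with Mir1193 had sums of 7795 and 6507 CPM. The remaining shared seeds join genes of lower level. Mir494 and Mir410 (GGUUGUC) summed to 590 ± 2.99 CPM (SD, n = 2). The small SD of this sum hides opposite shifts, with Mir494 at 422 and 457 CPM and Mir410 at 170 and 131 CPM. Mir453 and Mir496a (GGUUGCC) summed to 188 ± 35.9 CPM, all of it from Mir496a, and Mir1197 and Mir758 (GGUUGAC) to 31.2 ± 2.75 CPM. No mature miRNA outside the cluster in the RefSeq table carries any of these 5 seeds.

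The cluster made up 5.97% of gene counts in replicate 1 and 5.73% in replicate 2, or 58506 ± 1732 CPM (SD, n = 2). It held 298924 and 268068 counts. With 10 or more counts in both libraries, 35 of the 38 members were detected. Of these, 14 reached 1000 CPM, 12 lay between 100 and 1000 CPM, and 9 lay below 100 CPM. The median detected member had 399 CPM, and the median over all 361 detected genes was 139 CPM. The cluster had no gene among the 20 most abundant of the series, 5 among the 50 most abundant and 14 among the 100 most abundant. Reads that map to several places were not counted for any gene, so shares, medians and ranks hold among the counted reads only. The 14 members at 1000 CPM or more held 92.6% of the cluster's level and the 12 from 100 to 1000 CPM held 6.56%.

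The levels of single members spanned a wide range. Mir411 was highest and stood at 2805 times the level of Mir544, the lowest detected member. The 5 highest members held 57.5% ± 1.74 of the cluster's counts. One listed arm of each of the leading genes besides Mir379, whose arms stand above, follows with the seed in capitals, to show which seeds these genes can carry. The counts do not say which arm was read, and the arms of Mir379 and Mir411 above share a seed.
miR-411-5p: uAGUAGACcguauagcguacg
miR-487b-5p: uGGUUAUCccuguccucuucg
miR-409-3p: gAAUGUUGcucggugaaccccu
miR-541-5p: aAGGGAUUcugauguuggucacacu
miR-369-3p: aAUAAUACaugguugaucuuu

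Mir411 (109710175 to 109710256, plus strand) had 9404 CPM in replicate 1 and 8594 CPM in replicate 2, and ranked 23rd among all genes. Mir487b (109727333 to 109727414) followed at 8004 and 7933 CPM. Replicate 1 was the higher library for both, and the ranges of these 2 genes did not overlap. Mir379, the first gene of the cluster (109709060 to 109709125), had 6452 and 5392 CPM. Gm24321, the row that covers Mir409, had 5407 and 5980 CPM, and Mir541 (109742409 to 109742498) had 4364 and 5762 CPM. Both were higher in replicate 2, so that Mir379 ranked above them in replicate 1 and below them in replicate 2. The log2 ratio within a library was 0.05 ± 0.29 (SD, n = 2) for Mir379 over Gm24321, less than the spread between the libraries. Gm24321 exceeded Mir541 in both libraries, with a log2 ratio of 0.18 ± 0.18 that was about as large as its spread.

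Below these stood Mir369 (109743418 to 109743496), known for its use with other miRNAs in reprogramming cells to pluripotency, at 4308 and 3425 CPM. Mir382 had 3464 and 3327 CPM. Gm25252, which covers Mir376a, had 3396 and 2985 CPM. The miR-376 miRNAs are known for adenosine-to-inosine editing of their precursors. Mir369, Mir382 and Gm25252 stood in this order in both libraries, though the ranges of neighbours overlapped. Taken within each library, the log2 ratio was 0.18 ± 0.19 (SD, n = 2) for Mir369 over Mir382 and 0.09 ± 0.09 for Mir382 over Gm25252, no clear excess over the spread between the libraries. Mir381 had 2478 and 2522 CPM, the Mir299b row 2128 and 1985 CPM, and Mir154 1582 and 1441 CPM. Gm25750, which covers Mir380, closed the group of the 12 highest at 1566 and 1295 CPM, below Mir154 in both libraries but with overlapping ranges. Levels are not divided by length, since a read was taken to be a whole mature miRNA, which was not checked. Dividing them by the annotated precursor length kept 11 of these 12 genes among the 12 highest.

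**Figure D1:**
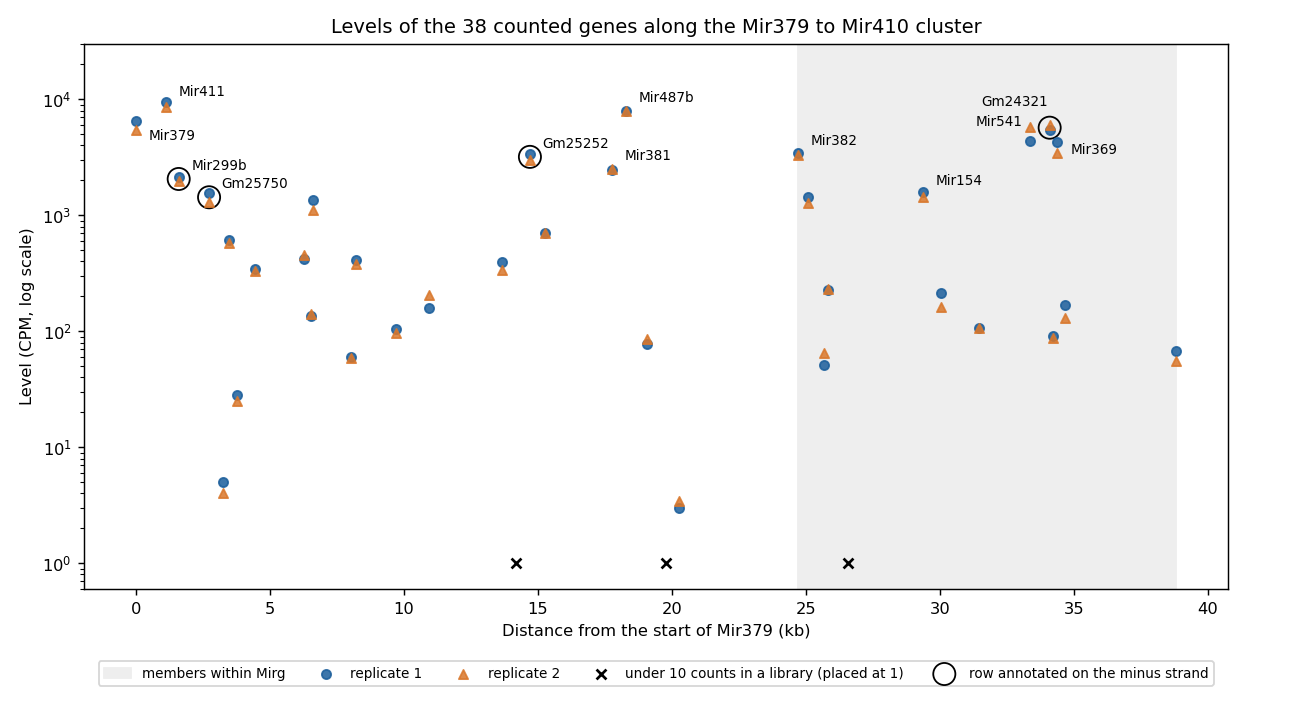
Level of each counted gene (CPM, log axis) against its distance from the start of Mir379 in kb, for replicate 1 (circles) and replicate 2 (triangles). Crosses at 1 mark the 3 members under 10 counts, rings mark the 4 rows annotated on the minus strand, and shading marks the stretch of members within Mirg. High members, from Mir411 and Mir379 at the left to Gm24321 and Mir369 at the right, sit among members of under 100 CPM along the whole cluster.

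The remaining detected members are given by range. Mir134, known for restraining dendritic spines in neurons through Limk1, had 1440 and 1274 CPM, and Mir1193 had 1343 and 1115 CPM. From 100 to 1000 CPM lay Mir300, Mir323, Mir494, Mir543, Mir376c, Mir329, Mir485, Mir496a, Mir667, Mir410, Mir679 and Mir377, with Mir300 highest at 704 ± 7.08 CPM and Mir377 lowest at 107 ± 0.097 CPM. Mir329 is, with Mir134, regulated by neuronal activity, and Mir485 acts at synapses. In stomach Mir329 had 338 ± 6.16 CPM and Mir485 228 ± 4.69 CPM. Mir410, for which the cluster is named, had only 170 and 131 CPM.

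Of the 9 detected members below 100 CPM, Mir495, Mir412, Mir539, Mir3072, Mir666 and Mir668 lay between 58.3 CPM for Mir668 and 99.8 CPM for Mir495. Mir758 had 28.2 and 25.2 CPM. Mir1197 had 25 and 19 counts and Mir544 15 and 16 counts, or 4.53 ± 0.66 and 3.21 ± 0.30 CPM. Gm27379 had 3 counts in replicate 1 and 0 in replicate 2. Mir654 and Mir453 had 0 counts in both libraries, which by counting error alone leaves room for at most 0.599 CPM (replicate 1) and 0.641 CPM (replicate 2). These members were not detectable at this depth.

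The 4 rows annotated on the minus strand drew nearly all their counts from the plus strand. They were counted 62532 times on the opposite strand in replicate 1 and 57295 times in replicate 2, against 12 and 11 counts on their own strand. Each overlaps a plus-strand miRNA gene that is not among the counted rows: Mir299a under Mir299b, Mir380 under Gm25750, Mir376a under Gm25252 and Mir409 under Gm24321. Together they held 12371 ± 178 CPM, 21.1% of the cluster. The 34 plus-strand rows had 0 counts on the opposite strand in both libraries. Apart from the own-strand counts of the 4 rows, every count of the cluster lay on the plus strand, and the levels of these rows are given as those of the loci they overlap. Mir376b, which overlaps no counted row, was not analysed here.

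The 12 and 11 own-strand counts all belong to Mir299b (109710645 to 109710693), which lies on the strand opposite to Mir299a. Their sequences are shown because the listed arms of Mir299b are contained in the hairpin of Mir299a.
miR-299a-5p: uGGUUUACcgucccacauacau
miR-299b-5p: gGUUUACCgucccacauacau
miR-299a-3p: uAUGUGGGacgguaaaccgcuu
miR-299b-3p: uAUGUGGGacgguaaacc

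The whole of miR-299b-5p, 21 nt, and of miR-299b-3p, 18 nt, is found in the Mir299a hairpin, so a read with no further bases matches both strands. Reads that map to several places were not counted, and the tables give no sequence for the reads that were.

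Sequence shared with miRNA precursors at other loci touched 4 of the 38 members, among them the 2 highest, Mir411 and Mir487b. Without these 4 members the cluster total was 41147 CPM instead of 58506 CPM. Genes that overlap in position were not compared here, so the Mir299b row, which shares 21 nt with Mir299a, stays in that total. Matches to the rest of the genome were not examined. Reads that map to several places were not counted for any gene, 27.8% of all reads in replicate 1 and 27.4% in replicate 2, and the tables do not say from which loci they came. Of the 38 members, 4 share 20 nt or more of precursor with another locus: Mir411 with Mir758, and both Mir376c and Mir487b with Mir376b. For Mir411 no listed mature arm matched another miRNA precursor over more than 12 nt, and for miR-487b-5p the longest match was 13 nt. The stretches of 20 nt in these 2 genes therefore lie partly outside the listed mature arms. The 3 longest matches of mature arms were those of miR-376c-5p with Mir376b, 18 nt, and of miR-300-3p and miR-381-3p with each other's precursor, 16 nt. These sequences are shown as the nearest to copies within the cluster, with the seed in capitals.
miR-376c-5p: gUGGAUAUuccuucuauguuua
miR-300-3p: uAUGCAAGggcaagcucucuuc
miR-381-3p: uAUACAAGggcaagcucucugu

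Mir300 and Mir381 lie 2430 nt apart and have different seeds. Mir381 had 2500 ± 31.2 CPM and Mir300 704 ± 7.08 CPM, a log2 ratio of 1.83 ± 0.03 (SD, n = 2).

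Neighbouring hairpins could differ strongly in level. Pairs that are not adjacent were not compared, so such differences are not shown to be particular to neighbours. In 10 pairs of adjacent loci the annotated precursors lie under 300 nt apart, and in these the higher gene exceeded the lower by 2.51-fold to 133-fold, with a median of 15.6-fold. Over all 31 adjacent pairs with both members detected, these 10 included, the median was 4.52-fold. Some genes, such as Mir412, Mir369 and Mir323, stand in more than 1 close pair, so the pairs are not independent. In each of the 10 close pairs the difference had the same direction in both libraries and was larger than the spread between them. The densest stretch holds Mir409, Mir412, Mir369 and Mir410. Mir412 (109743289 to 109743368) lies 51 nt after the Gm24321 row, which covers Mir409, and 49 nt before Mir369. Mir412 had 91.7 and 86.8 CPM. It lay below Mir409 by a log2 ratio of -5.99 ± 0.16 and Mir369 lay above it by 5.43 ± 0.18, differences of 63.7-fold and 43.1-fold. Mir410 then lay below Mir369 by -4.69 ± 0.03. High and low hairpins thus alternated over this stretch.

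The same was seen near the start of the cluster. Mir1197, with only 25 and 19 counts, lies 71 nt before Mir323, which had 614 and 582 CPM. Mir323 exceeded Mir1197 by a log2 ratio of 7.05 ± 0.16, the largest of the close pairs. Mir758, 216 nt further on, lay below Mir323 by -4.49 ± 0.06. Mir1193 begins 20 nt after Mir679 and exceeded it by 3.14 ± 0.24. The closest levels among these pairs were those of Mir382 and Mir134, with a log2 ratio of Mir134 over Mir382 of -1.33 ± 0.08. Since both members of a pair come from the same libraries, these ratios do not depend on the scaling. An error shared by the libraries, such as a preference of the library preparation for some sequences, would not show in the SD and was not tested.

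**Figure D2:**
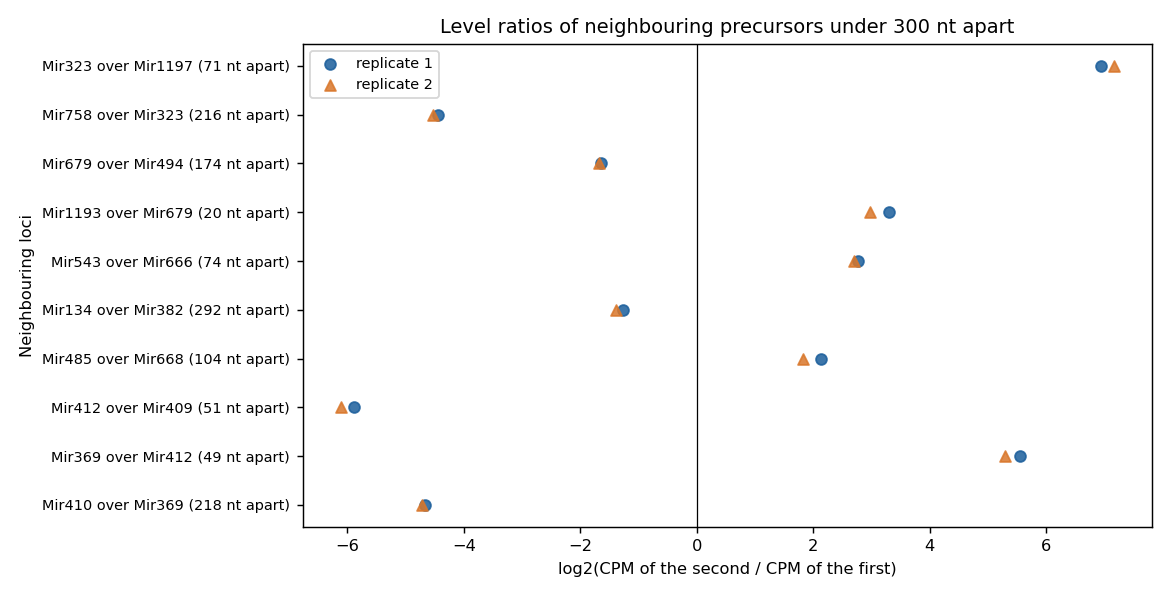
Level ratio (log2) within each of the 10 adjacent pairs under 300 nt apart, for replicate 1 (circles) and replicate 2 (triangles), with the distance between the annotated precursors in the row name. The points of a pair lie close together and far from 0 in either direction, from 7.05 on average for Mir323 over Mir1197 to -5.99 for Mir412 over Mir409.

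By the annotation, 14 members lie within Mirg (109729764 to 109749460, plus strand) and 24 lie upstream of it, outside any annotated long transcript of that strand. Within Mirg, 4 members lie inside an exon of at least 1 transcript (Mir134, Mir485, Mir377 and Mir410), 5 lie in introns (Mir453, Mir154, Mir496a, Mir541 and the Gm24321 row) and 5 cross an exon boundary (Mir382, Mir668, Mir412, Mir369 and Mir3072). The members within Mirg summed to 21770 ± 396 CPM, 37.2% of the cluster, and those upstream to 36736 ± 2129 CPM. The median detected member had 228 CPM within Mirg and 419 CPM upstream of it. The 3 highest members (Mir411, Mir487b and Mir379) and the 3 lowest detected ones (Mir544, Mir1197 and Mir758) all lie upstream. Within Mirg the highest was Gm24321 and the lowest detected by mean level was Mir668. In replicate 2 Mir3072 was lower than Mir668, with 55.8 against 65.2 CPM. Across the 33 detected members with a RefSeq hairpin, Spearman's rho with the log2 level was -0.11 for distance along the cluster, -0.21 for GC content and -0.09 for hairpin length (Pearson's r 0.00, -0.21 and -0.23). These members share a locus and the same 2 libraries and are not independent.

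The libraries were then compared for each member. Across the 35 detected members, Pearson's r of the log2 levels was 0.998 and Spearman's rho 0.997. The log2 ratio of replicate 2 over replicate 1 had a median of -0.08, against 0.04 over all 361 detected genes (-0.17 and -0.06 with DESeq2 size factors), and 24 of the 35 members lay below 0. It ran from -0.39 for Mir496a to 0.40 for Mir541. By the exact conditional binomial test with Benjamini-Hochberg adjustment over all detected genes, which called 42.1% of all tested genes, 20 of the 35 members were called. Of these, 15 were higher in replicate 1 (17.5% of all tested genes were called in that direction) and 5 were higher in replicate 2 (24.7% of all). With DESeq2 size factors, which lowered every ratio by 0.09, the members split 20 to 3, and the shares of all genes became 31.9% and 16.1%. None of the 20 called members had an absolute log2 ratio of 1 or more, against 1.11% of all tested genes. The test compares these 2 libraries against counting noise and says nothing of a condition. It calls a given difference more readily at higher counts, and the median detected member had 399 CPM against 139 CPM over all detected genes. Of the 15 detected miRNA genes of the domain outside the cluster, 66.7% were called.

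Among members of 100 CPM or more, several of the largest differences lay close together on the chromosome. Mir496a was lower in replicate 2, with 214 CPM in replicate 1 and 163 CPM in replicate 2, a log2 ratio of -0.39. Mir410 followed at -0.38 and Mir369 at -0.33. In the other direction, Mir541 was higher in replicate 2 by 0.40, Mir667, with 160 and 204 CPM, by 0.35 and Gm24321 by 0.15. Mir541 and Gm24321 lie 659 nt apart and were both called higher in replicate 2, while Mir369 and Mir410, the next loci but for Mir412, were both called higher in replicate 1. The log2 ratio of Mir541 over Mir377, its neighbour on the other side, was 5.35 in replicate 1 and 5.75 in replicate 2. Members of this locus therefore did not shift by a common factor between the libraries. Mir487b and Mir381, which lie next to each other, had log2 ratios of -0.01 and 0.03, and neither was called.

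**Figure D3:**
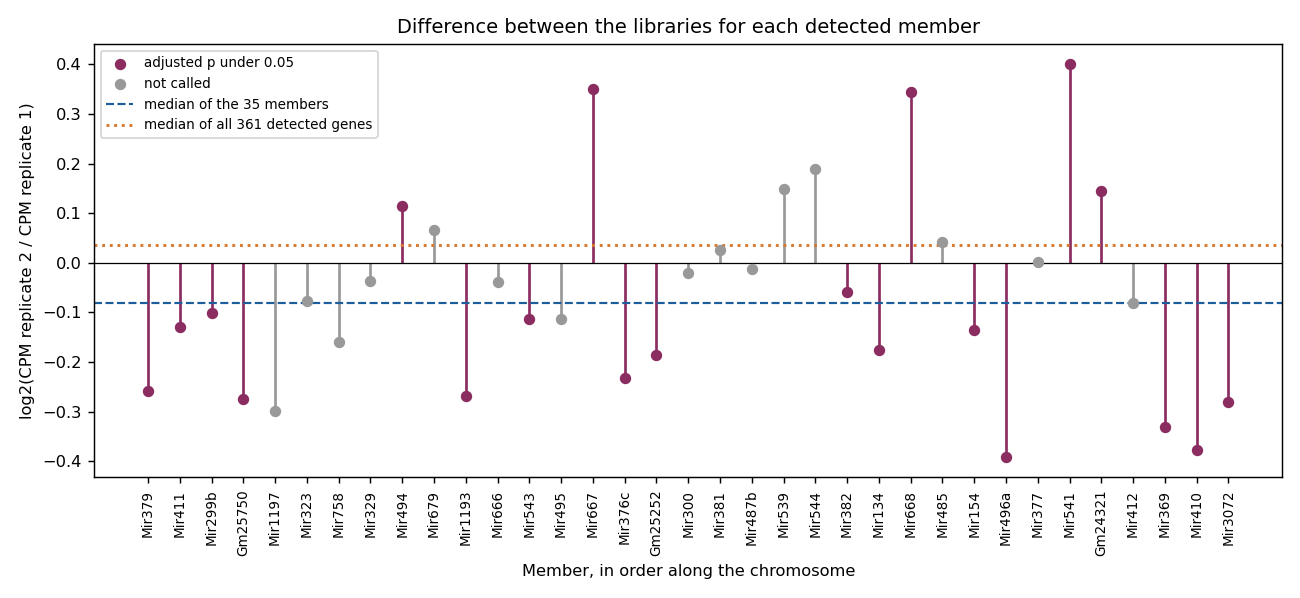
Log2 ratio of replicate 2 over replicate 1 for the 35 detected members in chromosomal order, with called members in purple. Most lie below 0, with a median of -0.08 (dashed) against 0.04 for all detected genes (dotted), and Mir541, Mir667 and Mir668 stand above 0.3.

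Within the Dlk1-Dio3 domain the cluster held most of the miRNA counts. The 20 counted miRNA genes between the start of Meg3 and Mir379 summed to 22013 ± 1435 CPM, with 15 detected, and the log2 ratio of the cluster over them was 1.38 in replicate 1 and 1.45 in replicate 2. The difference was larger than the spread between the libraries, though an exact test on 2 libraries cannot reach a threshold. The 6 genes within Rtl1 made up most of the 22013 CPM, with 17502 ± 1273 CPM, led by Mir127. These are antisense to Rtl1 or, for Mir3071, annotated on the same strand. The 9 genes upstream of Rtl1 summed to 3100 ± 29.4 CPM and the 5 genes between Rtl1 and Mir379 to 1411 ± 133 CPM. Per gene the order was another: the median detected gene had 1434 CPM within Rtl1 and 399 CPM in the cluster. The cluster has 38 genes against 6. Leaving out Mir127, which was decided after the data had been seen, gave a log2 ratio of 2.22 ± 0.10. The median log2 ratio between the libraries was -0.07 for the 15 detected genes outside the cluster, close to that of the members.

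**Figure D4:**
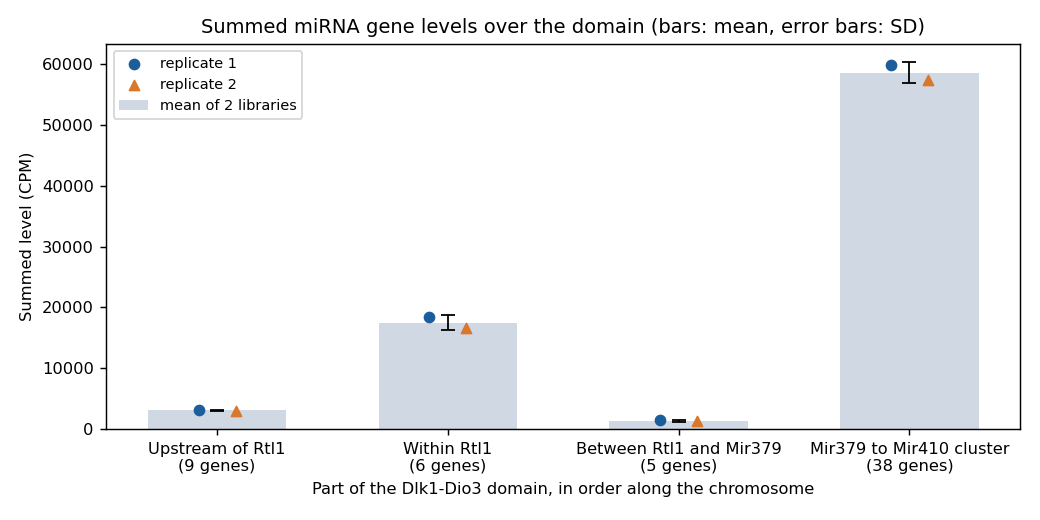
Summed level (CPM) of the counted miRNA genes in 4 parts of the Dlk1-Dio3 domain, with bars for the mean of 2 libraries, error bars for the SD and points for each replicate. The cluster stands near 58506 CPM in both libraries, above the genes within Rtl1 at 17502 CPM and the remaining parts at 3100 and 1411 CPM.

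The labelled tissue was checked by miRNAs of known cell types. Smooth muscle markers (Mir143 and Mir145a) had a sum of 164146 and 146512 CPM, all 5 epithelial Mir200 family genes were detected, and Mir375 of gastric epithelium had 5552 and 4678 CPM. Of 6 neural markers, 3 were at 0 in both libraries (Mir124a-1, Mir124a-2 and Mir9-2) and 1 was detected, with sums of 1671 and 1834 CPM. Reads that map to several places were not counted, so these 0 counts do not show that the neural miRNAs were absent. The same limit holds for undetected genes of the other lists. Of 9 marker lists, 4 had a lower sum in replicate 2 and 3 a higher one, while the 2 lists for epithelium and squamous epithelium differed by a log2 ratio under 0.05. The log2 ratio of replicate 2 over replicate 1 was -0.16 for smooth muscle, -0.25 for Mir375 and 0.13 for the neural list. The other lists had low sums, so that counting error weighs more in their ratios. These were -0.19 for striated muscle (117 and 102 CPM, 4 of 8 genes detected) and -0.14 for pancreatic acinar markers (6.59 and 5.98 CPM, 1 of 3 detected). They were 0.21 for Mir122 of liver (56.7 and 65.8 CPM) and 0.53 for the erythroid markers Mir451a and Mir144 (147 and 213 CPM). The part of any cell type in the level of the cluster was not tested.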

How the data were processed

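The authors deposited 1 table of whole-number counts per gene for each of 2 libraries, made on mm10 with GENCODE M4 per the text file deposited beside each table. Aligner and counter names were not given in the sources used here. Of the 3 count columns, the 1st covers both strands and was used for all levels and tests. The 2nd and 3rd, which add up to it in every row, separate the annotated strand from the opposite strand, read from the values since the columns carry no names. Lines that name no gene (13.0% unmapped, 27.6% mapping to several places and 2.41% outside genes, means over all reads) were left out. Reads carry no molecular identifiers, so limits cover counting error only.

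GENCODE M21 (same assembly) gave symbols and positions by identifier for 1894 of 1973 rows. CPM divides by the gene total, and detection needed 10 counts in both libraries. Library differences were tested by a two-sided exact conditional binomial test with Benjamini-Hochberg adjustment over 361 genes, called at an adjusted p under 0.05. The procedure was tried on simulated data that held counting noise only and were scaled by the unchanged genes. That trial cannot show miscalls from further spread between libraries or from scaling by library totals. The labels give a single group, so edgeR's quasi-likelihood test has no contrast. Scaling by edgeR 4.0.16 (TMM) and DESeq2 1.42.0 (size factors), the own-strand column, other filters and leaving out shared sequence or a replicate were the alternatives. Named are the 12 highest members, the minus-strand rows, members of shared seeds and the 3 largest ratios per direction at 100 CPM or more. The remaining members are given by range, and those named beyond this rule were chosen after their values were seen. Members and lists were chosen with earlier results of these data known. Python 3.11.15, scipy 1.17.1 and R 4.3.3 were used.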

Additional observations from a re-analysis of the deposited data

How the results depend on the processing

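The cluster total of 58506 CPM depended on what was counted: it was 47438 CPM with the own-strand column, 46134 CPM without the minus-strand rows, 41147 CPM without members that share sequence and 93168 CPM with totals that leave out the 5 most abundant genes. Without either replicate it ranged from 57281 to 59731 CPM. The share of the 5 highest members was 69.0% with the own-strand column, and from 56.3% to 58.8% without either replicate. The log2 ratio of the cluster over the domain's other miRNA genes was 1.07 with the own-strand column, 0.90 without genes that share sequence and 2.22 without Mir127. Members higher in replicate 2 numbered 3 with size factors. With an absolute log2 ratio of 1 or more added to the call, 0 were higher in replicate 1 and 0 in replicate 2. Each of the 3 other scalings shifts every ratio by a common amount, which was downward for all 3. The members' median of -0.08 became -0.13 with totals that leave out the 5 most abundant genes, -0.13 with TMM and -0.17 with size factors. In the same order, the median over all genes turned from 0.04 to -0.01, -0.02 and -0.06. The members' median was -0.07 with the own-strand column and -0.08 without members that share sequence, and a minimum of 1 count kept the same 35 members. No paired analysis was possible because the labels give a single group. With 2 libraries, the spread of each level is itself poorly known, and members under 10 counts cannot be ranked.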
